A study of Mus musculus with 6 samples.

Results

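The prostaglandin genes described here are 10 genes chosen by symbol from the 28043 genes of the tables: the synthases Ptgs1, Ptgs2, Ptgds, Hpgds, Ptges, Ptges2 and Ptgis, the receptors Ptger2 and Ptger4, and the breakdown enzyme gene Hpgd. They were measured by RNA-seq of polyadenylated RNA from mouse primary retinal pigment epithelium (RPE) cells, the pigmented layer behind the photoreceptors. There were 3 libraries labelled PVR, from mice with proliferative vitreoretinopathy, and 3 labelled Normal, from normal mice. In PVR, RPE cells that have left their layer help to build membranes that contract and pull on the retina, and the title of the series calls the disorder traumatic. The sources used here give no strain, age, sex, kind of injury, time after injury or pooling of eyes. They also do not say whether each library came from its own animal, so the errors and p-values hold for the spread of these 6 libraries only, and that spread may be technical. The genes were proposed with results of the same contrast known. Their differences between PVR and Normal libraries are therefore given as a description, and limma, fitted across all genes, is used for them only to count calls beside those of all genes.

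Prostaglandins are short-lived lipid signals made from arachidonic acid that phospholipases free from membranes. The cyclooxygenases PTGS1 and PTGS2 turn it into a common intermediate, and terminal synthases turn that into prostaglandin D, E, F, prostacyclin or thromboxane, which act on their own G-protein-coupled receptors. In the eye they are known for roles in inflammation and in the control of intraocular pressure. The lipocalin-type prostaglandin D synthase encoded by Ptgds is also a secreted carrier of retinoids, and in rat it is known to be made by the RPE.

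Both cyclooxygenase genes, both prostaglandin E receptor genes and Hpgds were higher in each of the 3 PVR libraries than in any Normal library. The terminal synthase genes Ptgds, Ptges and Ptgis were lower in each PVR library than in any Normal library, and the groups overlapped for Ptges2 and Hpgd. The log2 changes (PVR minus Normal, of log2(normalised count + 1), where a normalised count is the reads divided by the size factor of the library) ran from -1.39 for Ptgis to 3.37 for Hpgds, with a median of 0.90 over the 10 genes and of -0.02 over the 15766 genes tested. All 10 passed the filter on low counts, Ptger2 only through the PVR libraries. In the limma fit across all genes 5 of the 10 were called higher, where 17.9% of all genes tested were, and 3 were called lower, where 12.9% were (30.8% in either direction). The 8 genes whose groups did not overlap compare with 48.0% of all genes tested. Since the genes were chosen with this contrast known, nothing is read from these counts.

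**Figure D1:**
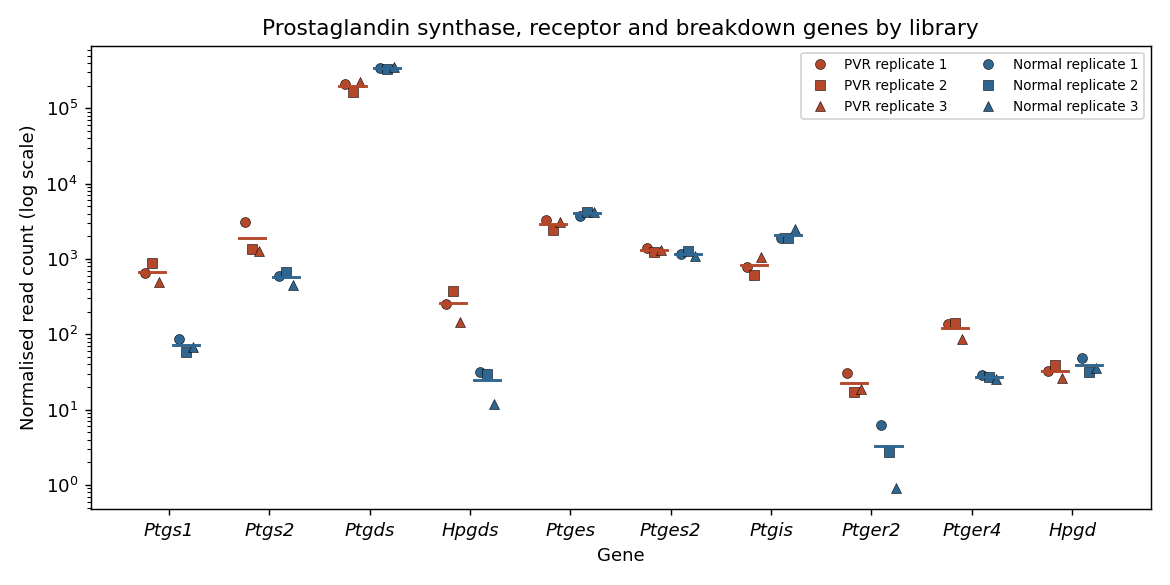
Normalised read counts (log scale) of the 10 genes in each library, PVR in red on the left and Normal in blue on the right of each pair. Points are libraries, with circles, squares and triangles for replicates 1 to 3, and bars are group means. Ptgds lies near the top in all 6 libraries, and the PVR and Normal points overlap for Ptges2 and Hpgd.

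Markers of other cell types differed between the groups. PVR totals were 15269983 to 17775427 reads and Normal totals 15929388 to 19173187. All 10 RPE markers were present in every library, though Best1 was at 15.6 ± 7.65 normalised counts in PVR and 11.98 ± 1.64 in Normal. The sum of these markers was 587271 to 641273 in PVR and 829873 to 891752 in Normal, with 5 of 10 lower (limma). Of 16 macrophage and microglia markers, 15 were higher and Csf1r was lower. Csf1r alone held 92.3% of the list's sum in Normal, so the sum is also given without it, a choice made after its values were seen. The whole list summed to 18942 to 35851 in PVR and 10274 to 11871 in Normal, and without Csf1r to 24585, 28276 and 10707 in PVR replicates 1 to 3, against 1134, 683 and 690 in Normal replicates 1 to 3. The tested markers were higher for 3 of 3 neutrophil, 2 of 2 mast cell and 1 of 1 T cell genes. They were also higher for 8 of 10 fibroblast and meningeal (1 lower), 2 of 7 pericyte, and 3 of 6 melanocyte and Schwann cell genes (2 lower). Of 4 glial genes 1 was lower, Rlbp1, which is also on the RPE list. Among the markers counted as higher, Itgam, Aif1, P2ry12, S100a8, S100a9 and Mcpt4 lay below the filter's minimum count of 10 in every Normal library. They passed the filter only through the PVR libraries, which fixed their direction, so their calls carry no test. The filter asks for 3 libraries at its level. Cd4, Csf3r, Cx3cr1 and the pericyte marker Des fell short of that level in at least 1 Normal library. They would not have passed without the PVR libraries, so their calls carry no test either. Cd4 was the only T cell marker that passed the filter. Of 8 endothelial and 8 photoreceptor markers 0 were called by limma, edgeR, DESeq2 or limma-voom, and 2 and 1 of them had an unadjusted limma p under 0.05. The mast cell sum was 111 to 183 in PVR and 44.3 to 59.3 in Normal, where Gata2 alone held 81.7% of it. Fcer1a and Tpsab1 had no read in Normal, but they averaged only 1.04 and 1.42 normalised counts in PVR, so their absence shows no difference.

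The cyclooxygenases come first in the pathway, and promoters of both genes are shown because both genes were higher in PVR. Below are the RefSeq windows from 250 bases before to 50 bases after the annotated start (GRCm38.p6), Ptgs1 at chr2:36230176-36230475 on the plus strand and Ptgs2 at chr1:150099781-150100080 on the plus strand. Capitals mark matches, on either strand, to the letters of 4 motifs. For NF-kB, a factor of inflammatory signalling, the search was for GGG and a later CC with any 5 bases between them. For C/EBP, a factor family known from inflammation and fat cells, the letters were TTNNGNAA. Those searched for the cyclic AMP response element were TGACG, which is a piece of that element. The TATA box, where transcription is set up, was searched as TATAAA.
Ptgs1: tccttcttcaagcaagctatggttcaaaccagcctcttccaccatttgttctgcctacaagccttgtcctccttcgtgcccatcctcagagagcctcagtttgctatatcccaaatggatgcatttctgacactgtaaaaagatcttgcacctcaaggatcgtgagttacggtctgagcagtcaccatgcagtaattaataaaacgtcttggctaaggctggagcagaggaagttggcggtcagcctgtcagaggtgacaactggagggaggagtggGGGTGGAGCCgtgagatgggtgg
Ptgs2: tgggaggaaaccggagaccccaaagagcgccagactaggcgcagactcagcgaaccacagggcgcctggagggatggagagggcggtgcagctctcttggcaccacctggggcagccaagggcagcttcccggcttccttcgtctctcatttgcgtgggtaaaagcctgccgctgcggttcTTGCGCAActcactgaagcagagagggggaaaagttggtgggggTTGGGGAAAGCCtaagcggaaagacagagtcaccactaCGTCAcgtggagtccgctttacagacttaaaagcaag
The Ptgs2 window held an NF-kB match beginning 23 bases before the start, overlapping one of its C/EBP matches, a second C/EBP match beginning 69 bases before the start, and the TGACG letters on the opposite strand from base 14 of the transcript. The Ptgs1 window held the NF-kB match alone of these motifs, beginning at base 28 of the transcript. Of all 32851 windows of this length, 50.8% held the NF-kB letters, 40.7% the C/EBP letters, 20.8% the TGACG letters and 13.6% the TATA letters, so such matches are common and describe the letters only. Windows were at hand for 9 of the 10 genes, without Ptgis. Among those 9, the TGACG letters were found in Ptgs2 and the TATA letters in Hpgd, the NF-kB letters in 5 and the C/EBP letters in 7. The searched letters of AP-1 (TGANTCA, 7.81% of all windows), E-box (CANNTG, 72.3%) and NFAT (GGAAA, 61.3%) were in 1, 8 and 7 of the 9 windows.

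Ptgs1 (chr2:36230426-36252272, GRCm38, GENCODE M21), the cyclooxygenase gene usually described as constitutive, had 654, 892 and 499 normalised counts in PVR replicates 1 to 3, against 87.6, 58.3 and 68.9 in Normal replicates 1 to 3. The lowest PVR library lay several times above the highest Normal library. Means were 681 ± 198 in PVR and 71.6 ± 14.8 in Normal (SD, n = 3 each), a ratio of 9.52 and a log2 change of 3.21 (SE 0.23). Ptgs2 (chr1:150100031-150108227), the inducible cyclooxygenase gene, had 3072, 1359 and 1272 normalised counts in PVR replicates 1 to 3, against 598, 663 and 452 in Normal replicates 1 to 3. PVR replicate 1 stood apart from the other PVR libraries, which still lay above all Normal libraries. Means were 1901 ± 1015 in PVR and 571 ± 108 in Normal, a ratio of 3.33 and a log2 change of 1.63 (SE 0.37). Under the 19 other settings of the analysis the log2 change lay between 2.998 and 3.42 for Ptgs1 and between 1.22 and 1.97 for Ptgs2.

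Levels of different genes are compared per kb of merged exon. Ptgs2 was at the higher level of the 2 cyclooxygenase genes in all 6 libraries. The ratio of Ptgs1 to Ptgs2 per kb was 0.251, 0.774 and 0.462 in PVR replicates 1 to 3, against 0.173, 0.104 and 0.180 in Normal replicates 1 to 3. The lowest PVR ratio, in replicate 1, where Ptgs2 was highest, was still above the highest Normal ratio. On the log2 scale the mean ratio was -1.16 ± 0.81 in PVR and -2.76 ± 0.44 in Normal.

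The 2 prostaglandin D synthase genes make the same product with unrelated proteins, a lipocalin for Ptgds and a glutathione-transferase-like enzyme of blood-derived cells for Hpgds. They differed between the groups in opposite directions, and their promoter windows are shown for that reason, Ptgds at chr2:25469700-25469999 and Hpgds at chr6:65144681-65144980, both on the minus strand of GRCm38.p6. Capitals mark the same motifs as above.
Ptgds: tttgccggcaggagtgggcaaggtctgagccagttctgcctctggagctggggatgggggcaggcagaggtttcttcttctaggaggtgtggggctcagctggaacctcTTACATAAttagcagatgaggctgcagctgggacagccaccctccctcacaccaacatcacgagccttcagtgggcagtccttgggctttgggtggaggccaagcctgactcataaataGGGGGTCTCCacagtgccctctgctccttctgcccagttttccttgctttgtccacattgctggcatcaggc
Hpgds: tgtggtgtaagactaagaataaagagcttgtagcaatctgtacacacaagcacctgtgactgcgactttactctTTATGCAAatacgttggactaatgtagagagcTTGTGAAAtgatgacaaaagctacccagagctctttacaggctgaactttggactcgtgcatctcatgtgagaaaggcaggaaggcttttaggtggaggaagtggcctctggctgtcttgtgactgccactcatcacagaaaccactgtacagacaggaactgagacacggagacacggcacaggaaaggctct
The Ptgds window held a C/EBP match and an NF-kB match, which began 22 bases before the start, and the Hpgds window held a pair of C/EBP matches and none of the other capitalised motifs. GC content was 57.7% in the Ptgds window and 46.7% in the Hpgds window, against a median of 52.7% over all windows.

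Ptgds (chr2:25466709-25470046) was among the most abundant transcripts of every library. It had 208248, 166186 and 224642 normalised counts in PVR replicates 1 to 3, against 339399, 337521 and 354623 in Normal replicates 1 to 3. The Normal values lay close together and above all PVR values. By normalised count it ranked 4, 6 and 3 among all genes in PVR replicates 1 to 3, against 1, 1 and 2 in Normal replicates 1 to 3. Its share of all reads assigned to genes was 1.16%, 0.956% and 1.34% in the PVR libraries, against 2.07%, 2.13% and 2.04% in the Normal libraries. Means were 199692 ± 30153 in PVR and 343848 ± 9379 in Normal, so the PVR mean was 58.1% of the Normal mean (log2 change -0.80, SE 0.14). Under the other settings the log2 change lay between -0.90 and -0.67.

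Hpgds (chr6:65117293-65144908) had 252, 379 and 146 normalised counts in PVR replicates 1 to 3, against 32.0, 29.6 and 11.8 in Normal replicates 1 to 3. The Normal values rest on 31, 32 and 13 reads, and the lowest PVR library was well above them. Means were 259 ± 117 in PVR and 24.5 ± 11.04 in Normal, a ratio of 10.6 and a log2 change of 3.37 (SE 0.45), higher than that of 97.2% of all genes tested. Ptgds nevertheless stayed far above Hpgds per kb of exon in all 6 libraries. The ratio of Ptgds to Hpgds was 3216, 1707 and 5979 in PVR replicates 1 to 3, against 41389, 44376 and 117273 in Normal replicates 1 to 3, and the groups did not overlap.

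**Figure D2:**
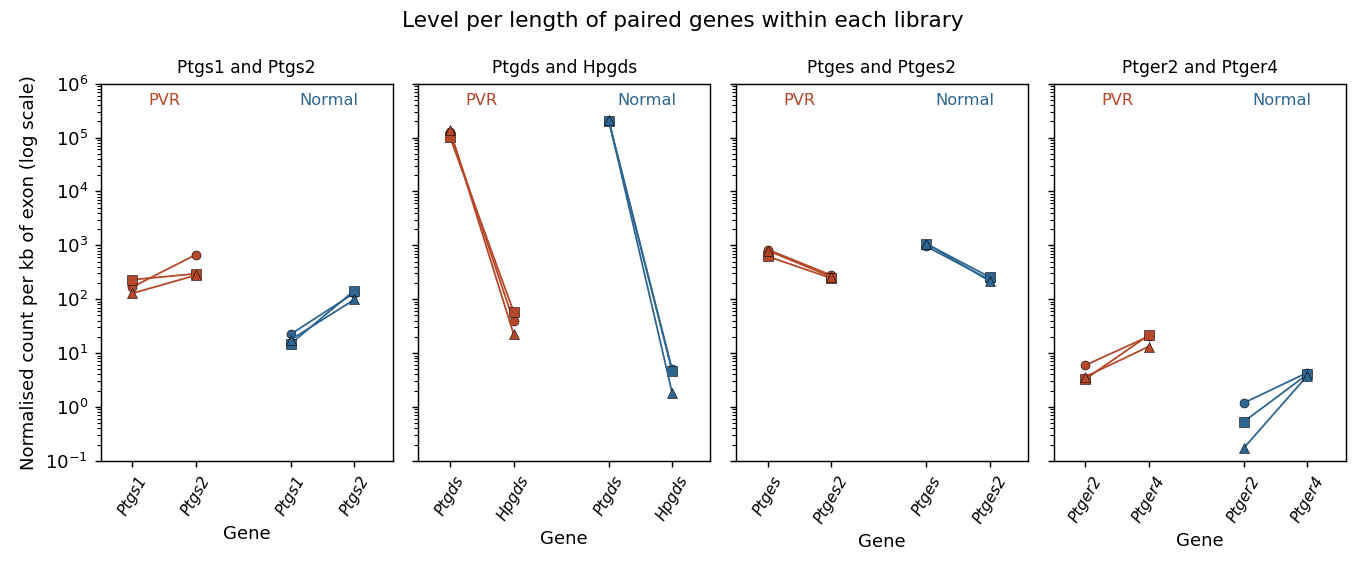
Normalised counts per kb of merged exon (log scale) of 4 pairs of genes, PVR on the left and Normal on the right of each panel. Each line joins the 2 genes of a pair within 1 library, with circles, squares and triangles for replicates 1 to 3. The Ptgds to Hpgds lines are the steepest, and the Ptgs1 to Ptgs2 lines rise less in PVR than in Normal.

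Prostaglandin E is made from the cyclooxygenase product by several synthases, microsomal ones among them. Ptges (chr2:30889471-30929863), which encodes the inducible microsomal synthase, had 3280, 2441 and 3138 normalised counts in PVR replicates 1 to 3, against 3735, 4191 and 4241 in Normal replicates 1 to 3. The groups lay close but did not overlap. Means were 2953 ± 449 in PVR and 4055 ± 279 in Normal, so the PVR mean was 72.8% of the Normal mean (log2 change -0.47, SE 0.13). Under the other settings it lay between -0.55 and -0.34. Ptges was thus lower in the same libraries in which both cyclooxygenase genes were higher.

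Ptges2 (chr2:32395896-32405772), whose product is a second microsomal synthase, had 1408, 1239 and 1316 normalised counts in PVR replicates 1 to 3, against 1157, 1297 and 1089 in Normal replicates 1 to 3. These groups overlapped. Means were 1321 ± 84.3 in PVR and 1181 ± 106 in Normal (log2 change 0.16, SE 0.11). Per kb the ratio of Ptges to Ptges2 was 2.998, 2.53 and 3.07 in the PVR libraries, against 4.15, 4.16 and 5.01 in the Normal libraries, so Ptges was the more abundant of the pair in all 6.

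Ptgis (chr2:167191805-167240604), the prostacyclin synthase gene, had 784, 618 and 1064 normalised counts in PVR replicates 1 to 3, against 1928, 1902 and 2513 in Normal replicates 1 to 3. All PVR values lay below all Normal values, with PVR replicate 3 the nearest to them. Means were 822 ± 225 in PVR and 2115 ± 345 in Normal, so the PVR mean was 38.9% of the Normal mean (log2 change -1.39, SE 0.20). Only 2.15% of all genes tested had a lower log2 change. Under the other settings the log2 change lay between -1.66 and -1.20. Ptgds, Ptgs1, Ptges, Ptges2 and Ptgis all lie on chromosome 2, and the other 5 genes lie on 5 different chromosomes.

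The receptors EP2 and EP4, encoded by Ptger2 and Ptger4, both raise cyclic AMP when prostaglandin E binds. Ptger4 (chr15:5206661-5244187) had 136, 144 and 87.8 normalised counts in PVR replicates 1 to 3, against 28.9, 26.9 and 25.4 in Normal replicates 1 to 3. The Normal values were nearly level and lay well below the lowest PVR value. Means were 122 ± 30.2 in PVR and 27.0 ± 1.75 in Normal, a ratio of 4.53 and a log2 change of 2.11 (SE 0.28). Under the other settings the log2 change lay between 1.96 and 2.33. Of its 6648 exon bases 1097 are shared with genes on the opposite strand, among them the tested gene Ttc33, and no source used here says whether strand was used in counting, so its level is uncertain to that extent.

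Ptger2 (chr14:44988195-45003820) was at a few reads. It had 30, 15 and 20 reads in PVR replicates 1 to 3, against 6, 3 and 1 in Normal replicates 1 to 3. In normalised counts these are 30.9, 17.1 and 18.9 in PVR, against 6.18, 2.78 and 0.91 in Normal, and a count of 0 would allow up to 3 reads, or 2.72 to 3.42 normalised counts. PVR replicate 1 was the highest and the groups did not overlap. Over the summed reads the PVR to Normal ratio was 7.05, with an exact 95% interval of 3.60 to 15.4 that covers counting error only. The log2 change was 2.60 (SE 0.60) with 1 added to each value and 1.73 with 5 added. Ptger2 reached the filter level in the 3 PVR libraries and in 0 Normal libraries. Ptger4 was the more abundant of the 2 receptor genes per kb in all 6 libraries. The ratio of Ptger2 to Ptger4 was 0.291, 0.152 and 0.275 in PVR, against 0.274, 0.132 and 0.0457 in Normal, and these groups overlapped.

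Hpgd (chr8:56294585-56321043) encodes the dehydrogenase that begins the inactivation of prostaglandins. It had 33.0, 38.7 and 26.4 normalised counts in PVR replicates 1 to 3, against 48.4, 31.5 and 36.3 in Normal replicates 1 to 3. The groups overlapped. Means were 32.7 ± 6.14 in PVR and 38.7 ± 8.74 in Normal (log2 change -0.23, SE 0.32). Over the 10 genes, levels per kb of exon spanned a wide range. In PVR the group means ran from Ptgds at 121099 normalised counts per kb through Ptges at 751, Ptgs2 at 415, Ptgis at 320.3, Ptges2 at 261, Ptgs1 at 175, Hpgds at 40.4, Hpgd at 19.4 and Ptger4 at 18.4 to Ptger2 at 4.29. In Normal they ran from Ptgds at 208519 through Ptges at 1032, Ptgis at 824, Ptges2 at 234, Ptgs2 at 125, Hpgd at 23.0, Ptgs1 at 18.4, Ptger4 at 4.07 and Hpgds at 3.81 to Ptger2 at 0.63. Ptgs1, Ptgs2 and Hpgds stood higher in the PVR order than in the Normal order, Hpgd, Ptgis, Ptges2 and Ptger4 stood lower, and Ptgds, Ptges and Ptger2 kept their places. Among neighbours in the PVR order, ranges over libraries overlapped for Ptges and Ptgs2, Ptgs2 and Ptgis, Ptgis and Ptges2, Hpgds and Hpgd, and Hpgd and Ptger4. In the Normal order they overlapped for Ptges and Ptgis, Hpgd and Ptgs1, and Ptger4 and Hpgds, and the other neighbours of both orders were apart.

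**Figure D3:**
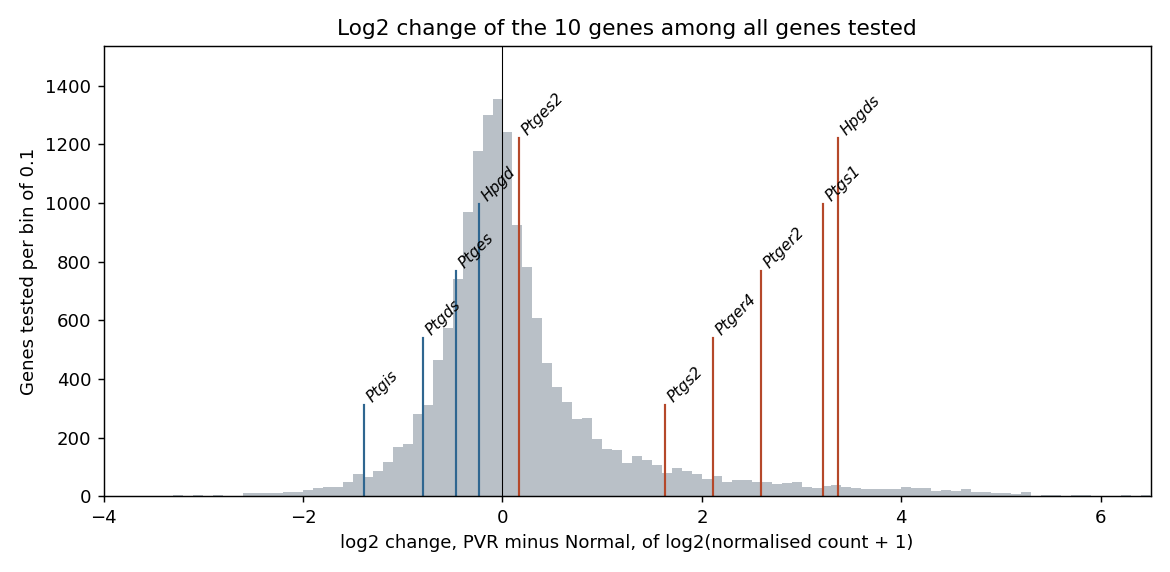
Distribution of the log2 change (PVR minus Normal) over the 15766 genes tested, in bins of 0.1, with a line for each of the 10 genes. Line height has no meaning, and the axis leaves out genes beyond its ends. Hpgds at 3.37 and Ptgs1 at 3.21 lie in the upper tail, and Ptgis at -1.39 lies in the lower tail.

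Set beside the macrophage marker sums without Csf1r, Hpgds, Ptgs1 and Ptger4 were highest in PVR replicate 2 and lowest in PVR replicate 3 of the PVR libraries, as those sums were. The neutrophil, mast cell and fibroblast sums had this order too, as did Hpgd, whose groups overlapped, so the order was not particular to macrophage markers. The sums of the other marker lists did not have it. Ptgs2 and Ptger2 were highest in PVR replicate 1. The log2 changes of the 15 macrophage markers without Csf1r ran from 2.38 to 5.78, with a median of 4.64. The highest of these markers was Itgam, which, like Aif1 and P2ry12, passed the filter only through PVR. Cx3cr1 would not have passed without PVR either. The log2 changes of Hpgds, Ptgs1 and Ptger4 were 3.37, 3.21 and 2.11. Ptgds and Ptgis were lowest in PVR replicate 2 and highest in PVR replicate 3. The part of other cells in these differences was not tested, and in bulk RNA fewer cells of a type and less RNA per cell cannot be told apart.

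The other genes of the pathway were read from lists of 43 genes, 40 of them in the tables, and 25 passed the filter. These lists, like the 10 genes, were drawn up with earlier results known, so their counts are not independent evidence. Of the 25, 4 passed the filter on low counts only through the PVR libraries (Pla2g2e, Alox5, Ltc4s and Cysltr1), which fixed the direction in which they could differ, and they are described without a test. Of the other 21, 7 were higher and 4 lower in PVR (limma), beside 17.9% and 12.9% of all genes tested. Those shares still include genes that passed the filter only through PVR, so the 2 sets are not filtered alike. The filter asks for 3 libraries at its level. Of the 7 higher genes, Tbxas1, Ptgir and Alox5ap reached it in fewer Normal libraries. They would not have passed without the PVR libraries, so their calls carry no test either. Of the 21 genes 7 belong to the step that frees arachidonic acid, and 1 of these rose and 1 fell. Pla2g4a, the cytosolic phospholipase gene, had 192, 293 and 186 normalised counts in PVR, against 83.5, 92.6 and 57.1 in Normal (log2 change 1.51, limma adjusted p = 0.00183). The secreted phospholipase gene Pla2g2e averaged 21.7 ± 0.05 in PVR and 5.08 ± 0.52 in Normal (log2 change 1.90, no test). Pla2g5, another secreted phospholipase gene and by far the most abundant of the 3, had 5819, 4443 and 6904 in PVR, against 9465, 10820 and 11560.0 in Normal (log2 change -0.91, limma adjusted p = 0.00254). Mgll, Daglb and Pla2g6, the most abundant genes that did not pass, had log2 changes of 0.27, 0.24 and -0.14, and Daglb shares 2309 exon bases with the neighbouring gene Rac1.

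Among 5 further synthase genes, 1 rose and 1 fell. Tbxas1, the thromboxane synthase gene, had 312, 560.4 and 160 normalised counts in PVR replicates 1 to 3, against 15.5, 12.04 and 8.16 in Normal replicates 1 to 3. It was highest in PVR replicate 2, as Hpgds and the macrophage, neutrophil, mast cell and fibroblast sums were. The groups lay far apart (log2 change 4.60, no test). Tbxas1 reached the filter level in 3 PVR and 2 Normal libraries, and would not have passed without the PVR libraries. Cbr1, whose product can reduce prostaglandin E to F, averaged 995 ± 181 in PVR and 1411 ± 33.0 in Normal (log2 change -0.52, limma adjusted p = 0.0143), a call lost without PVR replicate 2. Ptges3, Akr1b3 and Prxl2b did not pass, with log2 changes of -0.23, 0.29 and -0.37. Without Normal replicate 2 Ptges3, a further prostaglandin E synthase gene, was called lower.

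Of the other receptor genes 2 passed the filter. Ptgir, the prostacyclin receptor gene, had 94.7, 46.7 and 31.2 normalised counts in PVR, against 6.18, 14.8 and 7.25 in Normal (log2 change 2.43, no test). It reached the filter level in 3 PVR libraries and 1 Normal library, and would not have passed without the PVR libraries. The prostacyclin receptor gene was thus higher in the libraries in which the prostacyclin synthase gene Ptgis was lower. The other, Ptger1, a further prostaglandin E receptor gene, did not pass.

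Among 5 tested transport and breakdown genes, 2 rose and 2 fell. Slco2a1, which encodes the prostaglandin uptake carrier, averaged 150.0 ± 68.7 in PVR and 34.6 ± 13.5 in Normal (log2 change 2.04, limma adjusted p = 0.0107). Ptgr1, a reductase gene of the step after Hpgd, averaged 279 ± 85.7 in PVR and 31.9 ± 18.6 in Normal (log2 change 3.19, limma adjusted p = 0.00071). Abcc4, an exporter of prostaglandins, averaged 1173 ± 228 in PVR and 2022 ± 383 in Normal (log2 change -0.79, limma adjusted p = 0.00882). Ptgr2, a second such reductase gene, averaged 692 ± 31.1 in PVR and 886 ± 42.7 in Normal (log2 change -0.36, limma adjusted p = 0.0234). It shares 1896 of its 5929 exon bases with the opposite-strand gene Gm47484, so its level is uncertain to that extent. Its call was lost without any single Normal library and without PVR replicate 2. Cbr3 did not pass (log2 change 0.09).

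The leukotriene branch uses the same arachidonic acid through 5-lipoxygenase. The list read for it also held other lipoxygenase genes and the receptor gene Fpr2, and had 11 genes in the tables. Of these, 5 passed the filter, 3 of them only through the PVR libraries. The others, Alox5ap and Lta4h, were both higher in PVR, but Alox5ap would not have passed without the PVR libraries. The untested Alox15 and Alox12, 2 further lipoxygenase genes, had 3 and 6 reads over the PVR libraries, against 40 and 22 reads over the Normal libraries, most of them in Normal replicate 2. Alox5ap, the activating protein gene, had 228, 265 and 103 normalised counts in PVR, against 16.5, 2.78 and 0.91 in Normal (log2 change 5.21, no test). It reached the filter level in 3 PVR libraries and 1 Normal library. Its Normal values rest on 16, 3 and 1 reads, and the ratio of summed reads was 30.5 with an exact 95% interval of 19.6 to 50.4 (counting error only). Alox5 averaged 27.2 ± 20.8 in PVR and 4.06 ± 2.83 in Normal (log2 change 2.39, no test). The leukotriene C synthase gene Ltc4s averaged 26.4 ± 14.1 in PVR and 1.95 ± 1.10 in Normal (log2 change 3.11, no test), and it shares 268 exon bases with Gm26542. The receptor gene Cysltr1 averaged 25.3 ± 8.98 in PVR and 4.73 ± 0.66 in Normal (log2 change 2.15, no test). Lta4h, the hydrolase gene, was abundant in both groups, at 884 ± 55.4 in PVR and 609.5 ± 9.42 in Normal (log2 change 0.53, limma adjusted p = 0.00331). Macrophage markers were higher in the same libraries, and their part was not tested.

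Genes with the most similar pattern were sought among 11684 named protein-coding genes by the root mean square distance between log2 values centred on their own mean, over the 6 libraries. Nearest to Ptgds were Gramd4 (0.05) and Amer2 (0.06), and nearest to Ptgis were Capn12 (0.05) and Adra1b (0.07). Nearest to Hpgds were Anpep (0.14) and Rin3 (0.16), and nearest to Ptgs1 were Col1a1 (0.11) and Serpinb1a (0.12). Nearest to Ptgs2 were Marcksl1 and Ahnak (0.11 each), both of which were also highest in PVR replicate 1, at 1078 and 8839 normalised counts. For Ptger4 these were Litaf and Mctp1 (0.05 each), for Ptger2 Cd83 (0.22) and H2-Ab1 (0.25), for Ptges Spryd3 and Endou (0.04 each), for Ptges2 Eef1d (0.04) and Taf13 (0.05), and for Hpgd Umps (0.07) and Ccnt1 (0.09). The distances for Ptger2 and Hpgds, the genes with the fewest Normal reads, were among the largest.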

How the data were processed

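RNA-seq of 6 mouse RPE libraries was used, grouped by sample title. For each gene symbol the authors deposited a normalised signal. Dividing it by the smallest step of its library gave whole reads for 100% of values (within 0.001 reads), so the deposited signal is a read count over 1 size factor per library. The submitters' processing notes name mm10 and DESeq2 but give neither a role. Aligner, counter, annotation and strand setting: not given in the sources used here. No pair of libraries was a duplicate (chi-square per gene at least 19.9).

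Limma 3.58.1 (R 4.3.3) was fitted on log2(normalised count + 1) with trend and robust moderation for the 15766 genes passing filterByExpr of edgeR 4.0.16 (minimum count 10), with Benjamini-Hochberg adjustment over all of them and a threshold of 0.05. A log2 change is on that scale, which understates changes of low genes. The script was tested on simulated data. Count tests (edgeR quasi-likelihood, DESeq2 1.42.0) on recovered reads were alternatives. They called 2762 and 2889 genes higher and 1944 and 1935 lower, against 2825 and 2033 by limma. Libraries with the same replicate number deviated together (r = 0.24, 0.23 and 0.18), so the numbers may mark pairs, a reading from the data alone. The main fit had no term for these pairs, so the errors and p-values given ignore them. They entered only as a block in an alternative fit. The fit with the pairs as a block changed no call among the 10 genes.

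The 10 genes, the 5 pathway lists and the 11 marker lists were chosen with earlier results of these data known. Named pathway genes are all that passed and up to 3 others per list with the highest level, and the 2 nearest genes were named for each of the 10. Lengths and coordinates are from GENCODE M21 (GRCm38, also called mm10), where 27362 of 28043 names matched. Pla2g2f, Ptgdr and Alox8 were not analysed here. Promoters are from RefSeq. Intervals and floors cover counting error only.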

Additional observations from a re-analysis of the deposited data

How the results depend on the processing

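Among the 10 genes the sign of the log2 change was the same in each alternative that could be fitted for it (19 for 9 genes and 18 for Ptger2). Much of this was fixed in advance. Changing the low-count filter, the block or the robust moderation cannot alter the estimate. Leaving out libraries cannot turn the sign of a gene whose groups did not overlap. Ptgs2 and Ptges were each called in 14 of the 19 alternatives, Ptgds in 18, and Ptger2 in 16 of its 18. Hpgds, Ptgs1, Ptgis and Ptger4 were called in all 19. With replicates 1 and 2 of each group alone, 3 of the 10 were called higher, against 5. Leaving out 1 library at a time, 4 to 5 were called higher and 2 to 3 lower. Of the other 25 pathway genes 10 to 11 were higher and 2 to 4 lower, the 2 without PVR replicate 2. Of the 11, 4 passed the filter only through PVR, and Tbxas1, Ptgir and Alox5ap would not have passed without PVR. Over the whole table these fits called 2193 to 2844 higher and 1307 to 2026 lower, against 2825 and 2033, the fewest lower without Normal replicate 1. With the replicate number as a block 3079 genes were higher and 2249 lower. Scaling to library totals called 2538 higher and 2464 lower and moved the median log2 change of all genes by -0.07. The PVR minus Normal difference in the log2 ratio of Ptger2 to Ptger4 was 0.96, and 0.27 to 1.57 with 1 library left out. For Ptger2 with 1 to 30 reads per library, depth limits the size of the difference. The cause of these changes was not tested, beyond the smaller number of libraries where some were left out, and the block changed no call among the 10 genes and no count of the other pathway genes called lower.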

Other observations

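Other receptor genes were at the limit of detection and were not tested. Ptgdr2, a receptor for prostaglandin D, had 26 reads over the PVR libraries and 15 over the Normal libraries, a ratio of 1.88 with an exact 95% interval of 0.96 to 3.82. Ptger3 had 13 and 8 reads, and the thromboxane receptor gene Tbxa2r had 9 and 8, in PVR and Normal. Ptgfr had 11 reads over the PVR libraries, 8 of them in replicate 2, and 0 reads in each Normal library. The lipoxygenase gene Alox15 had 3 reads over the PVR libraries and 40 over the Normal libraries, of which 29 were in Normal replicate 2, and 19 of the 22 Normal reads of Alox12 were in that library too, against 6 over the PVR libraries.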
